A study of Mus musculus with 6 samples.

Results

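The genes described here encode the proteasome and the proteins that assemble, activate or inhibit it. They were chosen by name: probe sets with a single gene symbol starting with Psma, Psmb, Psmc, Psmd, Psme, Psmf or Psmg, a mean log2 signal of at least 5.5 over the 6 arrays, and 1 probe set per gene, the brightest. Of 49 genes with such a name, 48 passed, out of 12596 genes tested in all. The 3 immunoproteasome subunits, Psmb8, Psmb9 and Psmb10, were kept apart. Psmc3ip and Psme3ip1 match the name only and encode no proteasome subunit, which leaves 43 members, called constitutive here. These include Psme1, of an interferon-inducible activator, and Psma8, a germ-cell form. Psme2 is not analysed here, because its probe set carries several symbols.

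Livers came from 3 ChLO mice, in which Chrebp (now Mlxipl) was deleted by crossing floxed mice with albumin-Cre mice, and from 3 WT mice. All 6 were male, 12 weeks old, and had eaten a 60% sucrose diet for 1 week. Albumin-Cre is active in hepatocytes, so other liver cells of ChLO mice keep the gene, and whether WT mice carried the floxed allele or Cre is not stated in the labels. The mice are labelled as biological replicates 1 to 3 of each group. The limma p-values set each difference against the spread between mice of a group, moderated towards that of genes of similar signal. The comparison asks whether the proteasome's transcripts differ when the carbohydrate-activated transcription factor ChREBP is deleted in liver under a sucrose load.

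The proteasome degrades proteins tagged with ubiquitin. Its core particle is a barrel of alpha and beta rings, with the proteolytic sites on some of the beta subunits, and its regulatory particle binds ubiquitin chains, removes them, and unfolds the substrate with a ring of ATPases. Interferon induces alternative catalytic subunits that replace the constitutive ones during assembly and favour peptides for presentation on MHC class I. When proteasome activity falls short, the transcription factor NRF1, encoded by Nfe2l1, raises the genes of most subunits together through antioxidant response elements.

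The promoter windows below run from 250 bases before to 50 bases after the transcription start in RefSeq (GRCm38.p6), and are shown because they set the 3 immunoproteasome genes, which stood higher in ChLO, beside Psmb5, the constitutive counterpart of Psmb8, which did not. Capitals mark matches on either strand to the gamma-activated site TTCNNNGAA, the core of the interferon-stimulated response element GAAANNGAA, the antioxidant response element TGACNNNGC, the CCAAT box CCAAT and the E-box CACGTG.
Psmb8, chr17:34197945-34198244, plus strand: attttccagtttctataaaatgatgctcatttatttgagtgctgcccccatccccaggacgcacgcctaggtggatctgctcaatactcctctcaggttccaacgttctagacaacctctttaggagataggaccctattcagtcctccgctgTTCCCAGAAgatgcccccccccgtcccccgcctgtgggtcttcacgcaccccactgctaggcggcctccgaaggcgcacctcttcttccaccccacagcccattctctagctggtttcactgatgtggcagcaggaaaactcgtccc
Psmb9, chr17:34187281-34187580, minus strand: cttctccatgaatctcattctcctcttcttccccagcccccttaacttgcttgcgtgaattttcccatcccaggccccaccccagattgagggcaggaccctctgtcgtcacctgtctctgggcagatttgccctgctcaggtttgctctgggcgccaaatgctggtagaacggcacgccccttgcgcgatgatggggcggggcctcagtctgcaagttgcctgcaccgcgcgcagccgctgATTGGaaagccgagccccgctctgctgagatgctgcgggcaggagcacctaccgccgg
Psmb10, chr8:105938343-105938642, minus strand: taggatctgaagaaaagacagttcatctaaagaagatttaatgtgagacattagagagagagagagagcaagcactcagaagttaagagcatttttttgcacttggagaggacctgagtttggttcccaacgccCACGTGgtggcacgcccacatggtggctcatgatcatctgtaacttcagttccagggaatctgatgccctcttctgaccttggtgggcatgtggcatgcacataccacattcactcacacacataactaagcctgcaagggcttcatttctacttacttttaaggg
Psmb5, chr14:54617946-54618245, minus strand: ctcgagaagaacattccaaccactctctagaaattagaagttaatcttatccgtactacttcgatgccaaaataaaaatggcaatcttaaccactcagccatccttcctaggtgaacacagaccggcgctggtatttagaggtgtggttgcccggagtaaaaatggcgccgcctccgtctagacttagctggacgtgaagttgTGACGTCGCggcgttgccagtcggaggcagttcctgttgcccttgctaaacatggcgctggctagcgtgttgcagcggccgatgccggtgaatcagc

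Each of these windows held 1 match, a gamma-activated site in Psmb8, a CCAAT box in Psmb9, an E-box in Psmb10 and an antioxidant response element in Psmb5. Over all 32851 windows of the table, 8.3% held the gamma-activated site, 37.41% the CCAAT box, 7.15% the E-box, 12.39% the antioxidant response element and 8.56% the core of the interferon-stimulated response element. Of 35 constitutive members with a window, 6 held an antioxidant response element (Psmb5, Psmb6, Psmc6, Psmd12, Psmd9 and Psme4) and 7 the core of an interferon-stimulated response element (Psmb3, Psmb4, Psmc2, Psmd4, Psmd9, Psme1 and Psmg4). The window of Psmb9 shares 275 of its 300 bases with that of Tap1, which lies on the opposite strand and encodes a subunit of the peptide transporter for MHC class I. A match describes these letters and is no evidence of binding.

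Mlxipl read 10.34, 11.22 and 11.48 log2 units in ChLO 1, 2 and 3, against 12.61, 12.56 and 12.59 in WT 1, 2 and 3, a difference of -1.57 (SE 0.28, limma adjusted p = 0.185). All 10 hepatocyte markers were measured and all 10 were lower in ChLO, 6 of them with all ChLO livers below all WT livers (6.19% over all genes tested), from -0.83 (Asgr1, the 1 marker with an unadjusted p under 0.05) to -0.19 (Alb). The difference of Alb is smaller in size than the 0.25 that scaling to the hybridization spike-in controls adds to every gene. Those of Fgb (-0.25), Ttr (-0.28) and Apoa1 (-0.30) are close to 0.25 in size, and the median over the 10 was -0.36. The median difference of the 10 markers from the WT mean was -0.43, -0.43 and -0.16 in ChLO 1, 2 and 3, against -0.09, -0.08 and 0.13 in WT 1, 2 and 3. The lowest correlations between arrays were those of ChLO 1 with WT 2 (0.894) and with ChLO 3 (0.898), while ChLO 1 and ChLO 2 correlated at 0.951. ChLO 3 correlated at 0.936, 0.953 and 0.95 with WT 1, 2 and 3, and less, at 0.932, with ChLO 2. The limma fit of the whole table gave 0 calls (0%) after adjustment. Before adjustment 1129 genes (8.96%) had a p under 0.05, of which 688 (5.46%) were higher and 441 (3.5%) lower in ChLO.

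In ChLO livers the constitutive proteasome differed little from WT, while the immunoproteasome subunits stood higher. No member passed over all genes: 0 of 48 had a limma adjusted p under 0.05. At an unadjusted p under 0.05 there were 3 of 48, where the share over all genes was 8.96%. These were Psmb10, Psmb9 and Psmd8, all higher in ChLO. Groups did not overlap for 8 members, 7 with ChLO above WT and 1 with ChLO below, where the shares over all genes were 9.04% and 6.19%. In bulk liver, fewer cells of a type and less RNA per cell cannot be told apart.

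**Figure D1:**
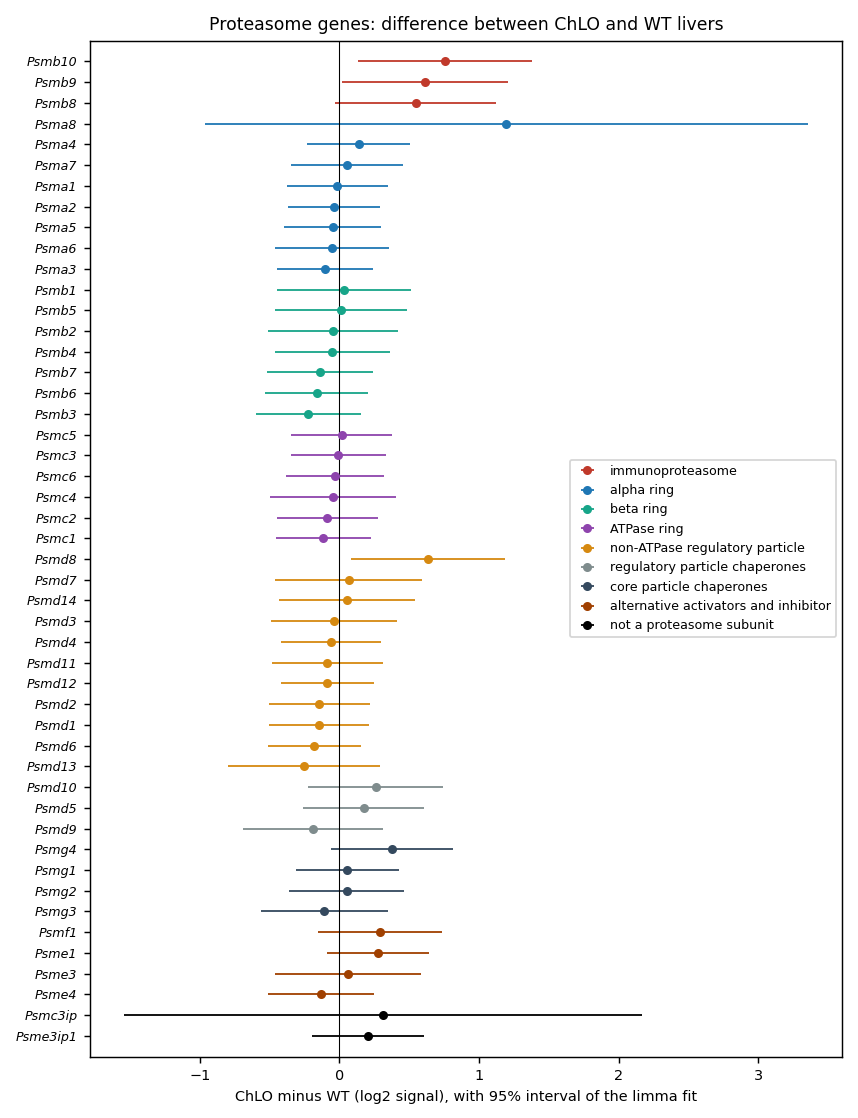
Difference between ChLO and WT livers on the log2 signal scale (horizontal axis) for each of the 48 members, with the 95% interval of the limma fit, grouped and coloured by class. The constitutive subunits lie close to 0, Psmb8, Psmb9, Psmb10 and Psmd8 lie to the right, and the dim probe sets of Psma8 and Psmc3ip have wide intervals.

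The immunoproteasome subunits are the interferon-inducible replacements for the catalytic beta subunits. Psmb10, which replaces Psmb7, read 11.33, 11.65 and 11.52 in ChLO 1, 2 and 3, against 10.26, 10.66 and 11.31 in WT 1, 2 and 3. The lowest ChLO liver lay 0.016 above the highest WT liver, and the WT livers were spread over a wider range than the ChLO livers. Its mean was 11.50 ± 0.16 in ChLO and 10.74 ± 0.53 in WT (SD, n = 3 each), a difference of 0.76 (SE 0.27), or 1.69-fold, with a limma adjusted p of 0.498.

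Psmb9, which replaces Psmb6, read 10.30, 10.75 and 10.62 in ChLO 1, 2 and 3, against 9.42, 10.18 and 10.23 in WT 1, 2 and 3. All ChLO livers lay above all WT livers, by 0.067 at the narrowest, and WT 1 was the lowest. The difference was 0.61 (SE 0.26), or 1.53-fold, with a limma adjusted p of 0.549. Psmb8, which replaces Psmb5, read 10.64, 11.23 and 10.69 in ChLO 1, 2 and 3, against 9.90, 10.40 and 10.63 in WT 1, 2 and 3. Here the groups were separated by 0.014, and again WT 1 was lowest and ChLO 2 highest. The difference was 0.55 (SE 0.25), or 1.46-fold, with a limma adjusted p of 0.575. A second, dimmer probe set of Psmb8, with a mean of 6.35, was higher in ChLO by 1.02.

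Over the 3 subunits the median difference was 0.61, against 0.06 over all genes tested. Without WT 1, the lowest WT liver for all 3, the median was 0.35, with Psmb8 at 0.34, Psmb9 at 0.35 and Psmb10 at 0.51. Without ChLO 2, the highest liver for all 3, it was 0.52, with Psmb8 at 0.36. The lymphocyte markers gave no reading of immune cells, since 2 of 10, Cd8a and Ms4a1, passed the level of 5.5, with a median difference from the WT mean of -0.37, -0.62 and 0.46 in ChLO 1, 2 and 3, against 0.05, 0.18 and -0.24 in WT 1, 2 and 3. For 7 macrophage and monocyte markers that median was 0.07, 0.50 and -0.14 in ChLO 1, 2 and 3, against 0.02, 0.00 and -0.03 in WT 1, 2 and 3. Of these 7, 5 were higher and 2 lower, Clec4f at -0.14 and Timd4 at -0.22. Ccr2, the macrophage marker with the smallest p, read 9.37, 8.14 and 6.48 in ChLO 1, 2 and 3, against 6.74, 6.76 and 5.84 in WT 1, 2 and 3, with overlapping groups. For 5 bile duct markers the median was 0.65, 0.80 and 0.41 in ChLO 1, 2 and 3, against 0.19, 0.11 and -0.34 in WT 1, 2 and 3, so that, as for the immunoproteasome, all ChLO livers lay above all WT livers and ChLO 2 was highest. Of these 5, 4 were higher and 1, Krt7, was lower at -0.12. Cldn4 and Krt19 did not overlap between the groups (9.04% over all genes with ChLO above), with differences of 2.74 and 0.62. The probe set of Krt19 was dim, with a mean of 5.81. For 6 endothelial markers the median was 0.29, 0.48 and -0.05 in ChLO 1, 2 and 3, against 0.11, -0.12 and -0.02 in WT 1, 2 and 3, with 4 higher and 2 lower and ChLO 2 again highest. The part of other cells in the immunoproteasome values was not tested.

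The constitutive catalytic subunits did not follow. Psmb5, which carries the chymotrypsin-like site, read 12.87, 12.30 and 12.28 in ChLO 1, 2 and 3, against 12.61, 12.44 and 12.36 in WT 1, 2 and 3. Psmb6, with the caspase-like site, read 12.09, 12.20 and 12.42 in ChLO 1, 2 and 3, against 12.31, 12.42 and 12.46 in WT 1, 2 and 3. Psmb7, with the trypsin-like site, read 12.38, 12.08 and 12.09 in ChLO 1, 2 and 3, against 12.42, 12.19 and 12.35 in WT 1, 2 and 3. The groups overlapped for all 3, with differences of 0.01 (SE 0.20), -0.16 (SE 0.16) and -0.14 (SE 0.16).

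The change of each immune subunit relative to its counterpart was then taken within each liver, as the log2 difference between the probe sets minus its WT mean. For Psmb9 over Psmb6 it was 0.66, 1.00 and 0.66 in ChLO 1, 2 and 3, against -0.44, 0.21 and 0.22 in WT 1, 2 and 3, a shift of 1.71-fold. All ChLO livers lay above all WT livers. For Psmb10 over Psmb7 it was 0.53, 1.14 and 1.01 in ChLO 1, 2 and 3, against -0.58, 0.04 and 0.54 in WT 1, 2 and 3, a shift of 1.86-fold. ChLO 1 lay just below WT 3. For Psmb8 over Psmb5 it was -0.07, 1.10 and 0.57 in ChLO 1, 2 and 3, against -0.55, 0.12 and 0.43 in WT 1, 2 and 3, a shift of 1.45-fold. ChLO 1 lay within the WT range. Two-sided exact permutation tests over the 6 livers gave p = 0.1 for Psmb9, 0.2 for Psmb10 and 0.4 for Psmb8 (0.3, 0.3 and 0.4 adjusted over the 3 pairs), where 0.1 is the smallest p that 3 against 3 allows.

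**Figure D2:**
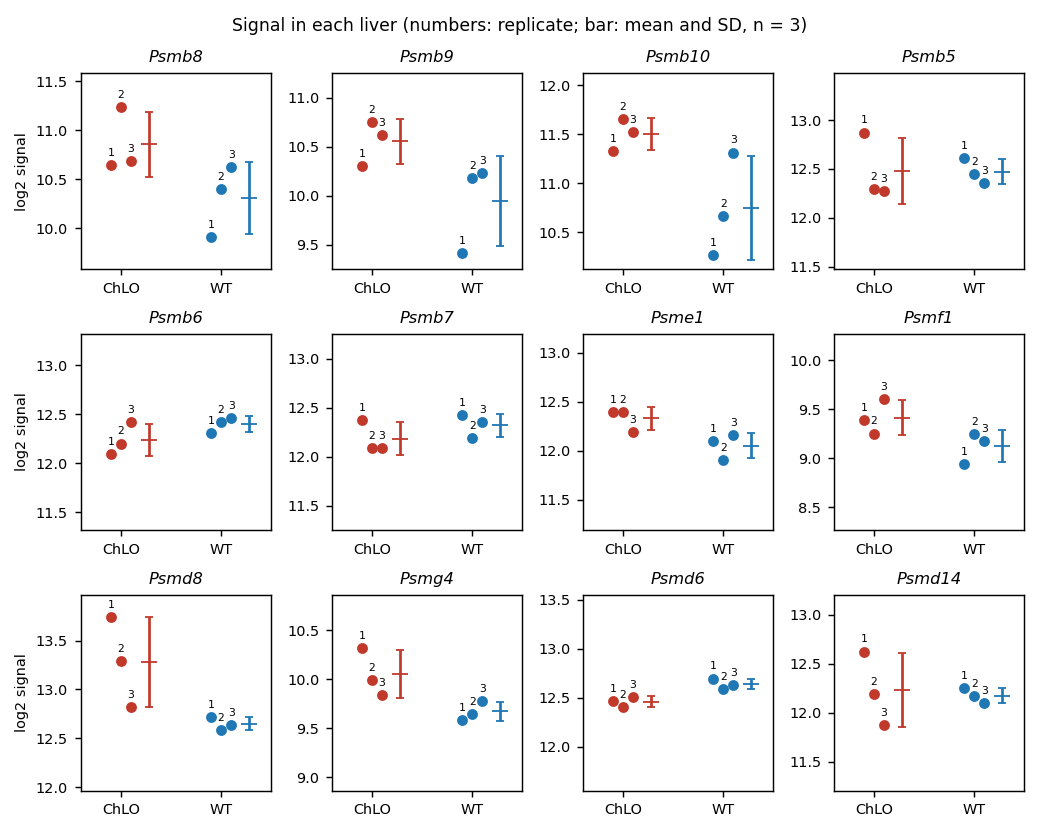
Log2 signal (vertical axis, of the same height in every panel) in each ChLO and WT liver for 12 members, with replicate numbers at the points and the mean and SD beside them (n = 3). WT 1 is the lowest liver for Psmb8, Psmb9 and Psmb10, Psmd8 is above WT in all 3 ChLO livers with ChLO 1 highest, and Psmb5, Psmb6, Psmb7 and Psmd14 overlap.

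Among 11 antigen processing partners, 2 had an unadjusted p under 0.05 (8.96% over all genes), both higher in ChLO. Tap1, which shares its promoter region with Psmb9, read 8.94, 9.29 and 8.90 in ChLO 1, 2 and 3, against 8.01, 8.48 and 8.48 in WT 1, 2 and 3. The groups did not overlap, and as for Psmb9 the highest liver was ChLO 2 and the lowest WT 1. The difference was 0.72 (SE 0.23), with a limma adjusted p of 0.457. Nlrc5, the transactivator of MHC class I genes, differed by 0.57 (SE 0.24, limma adjusted p = 0.549), with overlapping groups. Irf1, an interferon-induced transcription factor, differed by 0.39 (SE 0.21). H2-K1, an MHC class I heavy chain, went the other way at -0.27 (SE 0.17), with all ChLO livers below all WT livers by 0.0016 at the narrowest. B2m was lower too, at -0.26 (SE 0.18), with all ChLO livers below all WT livers by 0.00083 at the narrowest. Both differences are close in size to the 0.25 that spike-in scaling adds to every gene. Groups did not overlap for 1 of the 11 genes with ChLO above and for 2 with ChLO below (9.04% and 6.19% over all genes). Over the 11 genes, 7 were higher and 4 lower, and the median was 0.24.

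Psme1 encodes the alpha subunit of the interferon-inducible activator that caps the core particle. It read 12.40, 12.40 and 12.20 in ChLO 1, 2 and 3, against 12.10, 11.91 and 12.16 in WT 1, 2 and 3. The groups were separated by 0.039, with a difference of 0.28 (SE 0.16, limma adjusted p = 0.630). Psmf1, a regulator first described as a proteasome inhibitor, read 9.39, 9.25 and 9.60 in ChLO 1, 2 and 3, against 8.94, 9.25 and 9.18 in WT 1, 2 and 3. ChLO 2 and WT 2 were level to 2 decimals, and the difference was 0.29 (SE 0.19, limma adjusted p = 0.659). Its other 3 probe sets past the level were also higher in ChLO, by 0.40, 0.32 and 1.13. Psme3, the nuclear activator, and Psme4, a large single-chain activator, differed by 0.06 (SE 0.23) and -0.13 (SE 0.16), and all 5 probe sets of Psme4 past the level were lower in ChLO.

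The constitutive members as a set sat close to WT. Of the 43, 17 were higher and 26 lower in ChLO, with a median difference of -0.04 against 0.06 over all genes tested, but the direction of that median turned with scaling, to 0.02 with quantile normalization and to 0.21 with scaling to the hybridization spike-in controls. Spike-in scaling shifts every gene alike, by 0.25, so it cannot change the constitutive median relative to all genes. That relative median was -0.10 with the deposited scaling and -0.01 with quantile normalization. The size of the differences was small: the median absolute difference was 0.087, against 0.262 over all genes tested and 0.207 over the 6063 genes with a mean log2 signal of at least 9. The 95% interval lay within 1.5-fold either way for 32 of the 43 (74.4%), against 28.4% of those 6063 genes. It lay within 2-fold for 41 of the 43, with Psma8 and Psmd8 as the exceptions. The spread within a group was small too, with a median SD of 0.159 in ChLO and 0.121 in WT, against 0.278 in ChLO and 0.192 in WT over the 6063 genes. These genes share the floor of 9 but were not matched to the members in signal. The median SE was 0.284 over all genes tested and 0.213 over the 6063. The part of signal level in the small differences and spread was not tested.

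**Figure D3:**
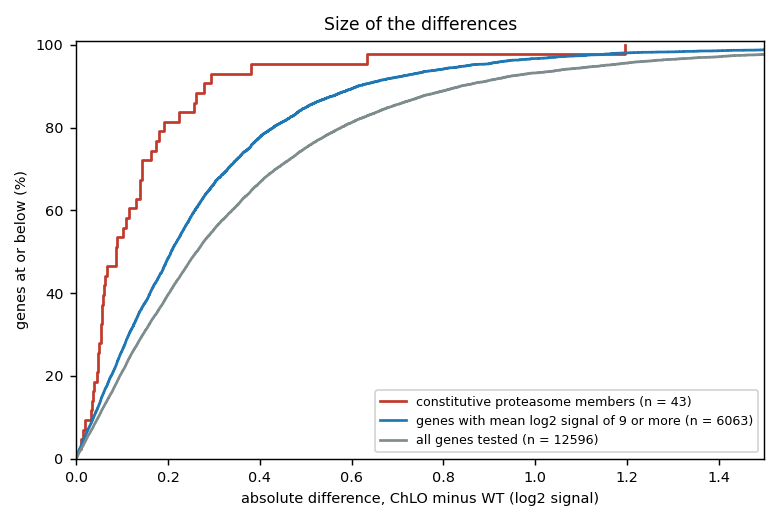
Cumulative share of genes (vertical axis, percent) at or below a given absolute difference between ChLO and WT on the log2 signal scale (horizontal axis, shown up to 1.5), for the 43 constitutive members, the 6063 genes with a mean log2 signal of at least 9, and all 12596 genes. The line of the proteasome members lies above the other lines between differences of 0.05 and 1, with medians of 0.087, 0.207 and 0.262 for the 3 sets. The sets were not matched in signal.

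The alpha ring forms the gated ends of the core barrel. Of its 8 members, 3 were higher and 5 lower, 0 had an unadjusted p under 0.05, and differences ran from -0.10 (Psma3) to 0.14 (Psma4) apart from Psma8. Psma8, the germ-cell form of an alpha subunit, had the smallest p of the ring and a dim probe set. It read 6.63, 6.47 and 6.21 in ChLO 1, 2 and 3, against 6.35, 6.46 and 2.91 in WT 1, 2 and 3. The groups overlapped, and the difference of 1.20 (SE 0.93) came with 1 low reading, that of WT 3. Psma8 and Psmc3ip, at means of 5.84 and 5.83, were the members just inside the level of 5.5, and the thymoproteasome subunit Psmb11, at 5.07, was just outside.

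Of the 7 constitutive beta ring members, 2 were higher and 5 lower, between -0.22 and 0.03. Psmb3, a beta subunit without a catalytic site, had the smallest p. It read 11.52, 11.62 and 11.86 in ChLO 1, 2 and 3, against 11.77, 11.98 and 11.92 in WT 1, 2 and 3, with a difference of -0.22 (SE 0.16, limma adjusted p = 0.689). ChLO 3 lay within the WT range, and the second probe set of Psmb3 differed by -0.18. The 6 ATPases that unfold substrates, Psmc1 to Psmc6, lay between -0.11 (Psmc1) and 0.02 (Psmc5), the narrowest range of any class of subunits or chaperones. Psmc1 read 11.45, 11.45 and 11.56 in ChLO 1, 2 and 3, against 11.49, 11.67 and 11.64 in WT 1, 2 and 3. The interval of its difference ran from -0.46 to 0.23.

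The non-ATPase subunits of the regulatory particle include ubiquitin receptors (Psmd4 and Psmd2), the deubiquitinase Psmd14 and the scaffold around it. Of 11, 3 were higher and 8 lower, with a median of -0.09. Psmd8, a subunit of the lid that is added late in its assembly, had the largest difference of the class. It read 13.74, 13.29 and 12.82 in ChLO 1, 2 and 3, against 12.72, 12.59 and 12.64 in WT 1, 2 and 3. All ChLO livers lay above all WT livers, by 0.099 at the narrowest, and the ChLO livers were spread far wider than the WT livers. The mean was 13.28 ± 0.46 in ChLO and 12.65 ± 0.07 in WT (SD, n = 3 each), a difference of 0.63 (SE 0.24), or 1.55-fold, with a limma adjusted p of 0.517. With array weights the difference was 0.65 with an adjusted p of 0.0498, the single setting in which a member passed. Without ChLO 1 it was 0.41 (adjusted p = 0.847), which is smaller by over 1.5 times, and over all alternatives the adjusted p ranged from 0.0498 to 0.87. Psmd8 has 1 probe set, so no second reading was available.

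Psmd6, another lid subunit, was the member that lay below WT in all 3 ChLO livers. It read 12.47, 12.40 and 12.51 in ChLO 1, 2 and 3, against 12.69, 12.59 and 12.63 in WT 1, 2 and 3. The difference was -0.18 (SE 0.14, limma adjusted p = 0.707) and with spike-in scaling, which shifts all genes alike by 0.25, it was 0.07. Psmd14 read 12.63, 12.20 and 11.87 in ChLO 1, 2 and 3, against 12.25, 12.18 and 12.10 in WT 1, 2 and 3, so that the ChLO livers lay on both sides of WT. The difference was 0.06 (SE 0.21), and -0.14 without ChLO 1.

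Psmd14 shows a pattern in which ChLO 1 and ChLO 3 lay apart, and which was not confined to the non-ATPase class. ChLO 1 was the highest of the 6 livers for 6 of the 11 non-ATPase subunits (Psmd2, Psmd3, Psmd7, Psmd8, Psmd11 and Psmd14), and ChLO 3 was the lowest for 7 (Psmd1, Psmd2, Psmd3, Psmd4, Psmd7, Psmd11 and Psmd14). Over all 43 constitutive members ChLO 1 was highest for 17 and ChLO 3 lowest for 15, while over all genes tested ChLO 1 was highest for 29.5% and ChLO 3 lowest for 16.6%. The class median relative to the WT mean was 0.07, -0.13 and -0.27 in ChLO 1, 2 and 3, against 0.08, -0.05 and -0.03 in WT 1, 2 and 3. In the ATPase ring ChLO 1 was highest for 2 of 6 and ChLO 3 lowest for 4. Its median was 0.08, -0.01 and -0.12 in ChLO 1, 2 and 3, against -0.003, 0.04 and 0.01 in WT 1, 2 and 3. In the alpha ring ChLO 1 was highest for 4 of 8 and ChLO 3 lowest for 1. The beta ring differed in that its median was -0.23, -0.18 and 0.01 in ChLO 1, 2 and 3, against -0.12, 0.02 and 0.07 in WT 1, 2 and 3.

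NRF2 targets and stromal markers also set ChLO 1 apart from ChLO 3. The median of 10 NRF2 targets was 1.31, 0.51 and -0.26 in ChLO 1, 2 and 3, against 0.44, -0.30 and -0.14 in WT 1, 2 and 3. That of 8 stellate cell and fibroblast markers was 1.80, 1.89 and -0.05 in ChLO 1, 2 and 3, against 0.37, 0.04 and -0.32 in WT 1, 2 and 3. The 3′ minus 5′ log2 difference of the Actb control probe sets was 0.84, 1.03 and 1.46 in ChLO 1, 2 and 3, against 1.13, 1.38 and 1.27 in WT 1, 2 and 3. The part of these in the values of Psmd8 and the other subunits was not tested.

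**Figure D4:**
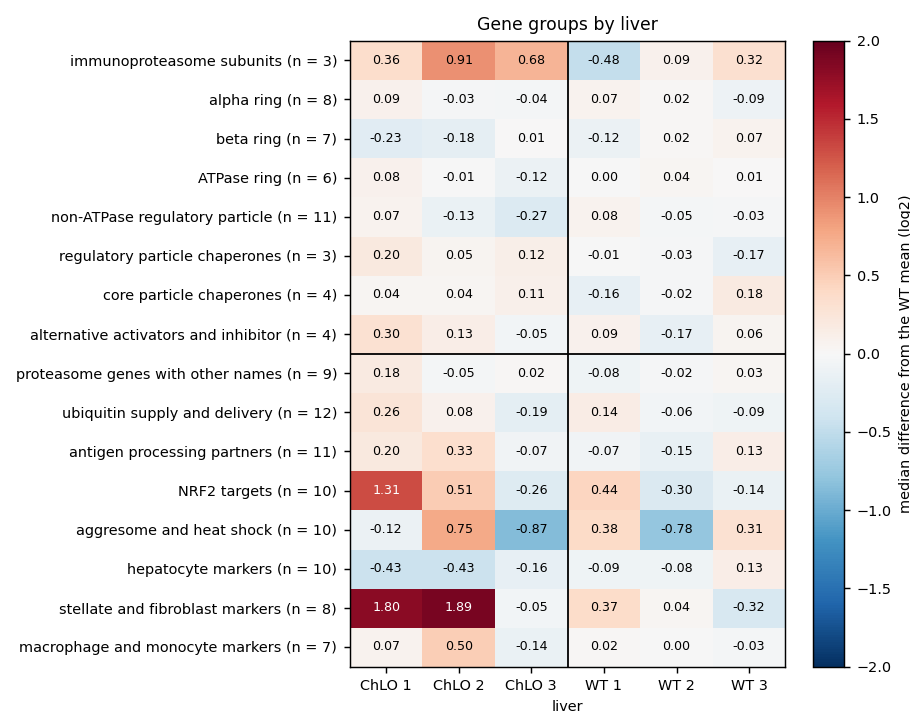
Median log2 difference from the WT mean (colour and number) for proteasome classes, above the line, and for other gene lists, below it, in each ChLO and WT liver, with the number of genes in brackets. The immunoproteasome row is highest in ChLO 2 (0.91) and lowest in WT 1 (-0.48), the constitutive classes stay between -0.27 and 0.30, and the NRF2 and stromal rows are high in ChLO 1 and ChLO 2.

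Chaperones of assembly do not stay in the finished particle. Psmg4, which helps to build the alpha ring, read 10.32, 9.99 and 9.84 in ChLO 1, 2 and 3, against 9.59, 9.64 and 9.78 in WT 1, 2 and 3. The groups were separated by 0.060, with a difference of 0.38 (SE 0.19, limma adjusted p = 0.594) that was 0.24 without ChLO 1. The other core chaperones, Psmg1, Psmg2 and Psmg3, differed by 0.06, 0.05 and -0.11 with overlapping groups. Of the chaperones of the ATPase ring, Psmd10 (gankyrin) came first by p. It read 10.15, 9.57 and 9.60 in ChLO 1, 2 and 3, against 9.47, 9.48 and 9.59 in WT 1, 2 and 3. ChLO 1 stood apart and ChLO 2 lay within the WT range, with a difference of 0.26 (SE 0.21) that was 0.07 without ChLO 1. Psmd5 and Psmd9 differed by 0.17 (SE 0.19) and -0.19 (SE 0.22), and without WT 3 Psmd5 differed by 0.04.

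Psme3ip1, which binds the nuclear activator and is not a subunit, read 9.95, 9.87 and 10.02 in ChLO 1, 2 and 3, against 9.55, 9.89 and 9.78 in WT 1, 2 and 3. ChLO 2 lay within the WT range, and the difference was 0.21 (SE 0.17, limma adjusted p = 0.718), or 0.11 without WT 1. Psmc3ip, a meiotic recombination factor, differed by 0.31 (SE 0.80) on a dim probe set.

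Of 22 members with over 1 probe set past the level, 10 had a probe set that differed in sign from the brightest. Psma5, for example, differed by -0.05 on a probe set with a mean of 12.66 and by 0.20 on a probe set with a mean of 11.94. Psmd11 had 5 probe sets past the level, with differences of -0.09, -0.36, -0.08, 0.07 and 0.26 from the brightest to the dimmest. A dim probe set of Psmb1 read 7.79, 6.85 and 7.26 in ChLO 1, 2 and 3, against 1.10, 7.69 and 7.31 in WT 1, 2 and 3. Its difference of 1.93 came with 1 low reading, that of WT 1.

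Some proteasome genes have other names. Of 9 such genes measured, 5 were higher and 4 lower, with a median of 0.01. Only 1 had an unadjusted p under 0.05 (8.96% over all genes). That was Usp14, a deubiquitinase that docks on the regulatory particle, which read 10.50, 10.52 and 10.59 in ChLO 1, 2 and 3, against 10.30, 10.12 and 9.98 in WT 1, 2 and 3. The groups did not overlap, with a difference of 0.41 (SE 0.16, limma adjusted p = 0.535) that became -0.03 when all its probe sets were averaged. Zfand2a, an arsenite-inducible partner of the proteasome, and Zfand5, a proteasome activator, differed by 0.98 (SE 0.44) and 0.35 (SE 0.19). Pomp, the maturation factor of the core particle, differed by -0.27 (SE 0.17).

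Of 12 genes of ubiquitin supply and delivery, 9 were higher and 3 lower. Only 1 had an unadjusted p under 0.05 (8.96% over all genes). Ubqln2, a shuttle that carries ubiquitinated proteins to the proteasome, read 11.81, 11.42 and 11.38 in ChLO 1, 2 and 3, against 11.06, 11.00 and 10.99 in WT 1, 2 and 3. The groups did not overlap, with a difference of 0.52 (SE 0.17, limma adjusted p = 0.468). Its paralogue Ubqln1 differed by -0.23 (SE 0.15), with all ChLO livers below all WT livers by 0.012 at the narrowest. That difference is smaller in size than the 0.25 that spike-in scaling adds to every gene. Ube2d3 differed by 0.26 (SE 0.16), with all ChLO livers above all WT livers by 0.054 at the narrowest. Groups did not overlap for 2 of the 12 genes with ChLO above and for 1 with ChLO below (9.04% and 6.19% over all genes). The ATPase Vcp, which extracts ubiquitinated proteins, differed by -0.30 (SE 0.19).

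Of 10 regulators of proteasome genes, 5 were higher and 5 lower. Nfe2l1 itself differed by -0.14 (SE 0.19) and Nfe2l2, which encodes NRF2, by 0.07 (SE 0.32), both with overlapping groups. Mafk, a small Maf protein that pairs with these factors on DNA, had the smallest p. It read 9.57, 9.35 and 8.40 in ChLO 1, 2 and 3, against 8.01, 7.48 and 8.26 in WT 1, 2 and 3. All ChLO livers lay above all WT livers, with a difference of 1.19 (SE 0.36, limma adjusted p = 0.455). Of 10 NRF2 targets, 9 were higher and 1 lower, and 1 had an unadjusted p under 0.05 (8.96% over all genes). That was Nqo1, a quinone reductase, at 0.84 (SE 0.34, limma adjusted p = 0.538). Of 10 heat shock and aggresome genes, which respond to misfolded protein, 4 were higher and 6 lower, and 0 had an unadjusted p under 0.05.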

How the data were processed

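Total RNA from frozen liver of 6 mice, 1 Affymetrix array per mouse, was labelled with biotin, per the labels' protocols. The authors deposited log2 signals for 45101 probe sets. The submitters' processing notes name MAS5, which summarises each array on its own, without a version. The values themselves show the log2 scale and how arrays were scaled: the linear mean of every array, with 2% trimmed from each end, was 500. Such scaling hides a change shared by most transcripts.

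Gene names came from the platform annotation, with 34945 probe sets naming 1 gene, 932 several and 9160 none. The 64 control probe sets were left out. Probe sets with a mean log2 signal of at least 5.5 were kept, with the brightest per gene, which left 12596 genes. ChLO was compared with WT by limma 3.58.1 in R 4.3.3 (lmFit, eBayes with a mean-variance trend, no block), with Benjamini-Hochberg adjustment over all 12596 genes and a threshold of 0.05. The procedure was tested on simulated data. All differences subtract WT from ChLO in log2 units, SE is limma's moderated standard error, and intervals are 95% intervals of that fit. The number of arrays limits the precision.

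The members and lists were chosen with earlier results of these data known. Values for each liver are given for members whose groups did not overlap at an unadjusted p under 0.05, the catalytic and immune subunits, Psme1, and the member of each class with the smallest p, and up to 4 genes of every other list are named. Others named with values were chosen after these were seen. Alternatives covered scaling, filter, variance model, array weights, probe set choice, the replicate number as a block and leaving out each array. Numbers were not used to pair mice in the main fit, because they are not stated to pair animals. Deviations of same-numbered arrays from their group means correlated at 0.304, -0.166 and 0.0631 for numbers 1, 2 and 3. With 1 array per group for each number, these values cannot settle whether mice were paired.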

Additional observations from a re-analysis of the deposited data

How the results depend on the processing

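The 3 immunoproteasome subunits were higher in ChLO in every alternative that measured them (18 for Psmb9 and Psmb10, 17 for Psmb8), and dropping single arrays put their median at 0.35 to 0.76. The constitutive median was 0.21 with spike-in scaling, which shifts every gene by 0.25 and put 42 of 43 members higher. Dropping single arrays put it at -0.08 (without ChLO 1) to -0.01, and the other alternatives at -0.04 to 0.02. Of 48 members, 8 had an unadjusted p under 0.05 with spike-in scaling (16.2% over all genes) and 1 with eBayes without a trend (8.58%). With array weights there were 7 (24.9% over all genes) and with the mean of all probe sets 5 (8.49%). Psmd13, lower in ChLO, was among them in both. When an array was left out there were from 0 (without WT 1 or ChLO 2) to 3, with 5.56% to 20.4% over all genes. At an adjusted p under 0.05, array weights called 1 member, Psmd8. Over all genes, 3 were called without a filter, 568 with array weights, 1 with the replicate block, and from 0 to 302 (without ChLO 3) when an array was left out. Array weights for 6 arrays stopped before convergence. The replicate block called 0 members and gave 4 at an unadjusted p under 0.05 (10.6% over all genes). Usp14 turned to -0.028 with the mean of its probe sets. The causes were not tested. Values of Psma8 and Psmc3ip lie close to the level of 5.5, where the deposited signals vary widely.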
